A study of Mus musculus with 4 samples.

Results

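Esp4 is 1 of 15 genes named Esp and a number among the 32285 genes listed in a single-cell RNA-seq matrix of the mouse submandibular gland (SMG) and sublingual gland (SLG). It was taken by its gene symbol, as 1 row of the matrix. The gene was chosen from its measured pattern in these data, its place among the leading genes of a duct-like cluster together with Slc13a2 and Slc9a3. Its levels across cells are therefore given as a description, with no test. The series has 4 samples, all in 1 group, of these glands in female C57BL/6N mice aged 6 to 8 weeks that were wild type (WT) and untreated. The labels name 2 pooled mice, the methods of the study name another number, and no source tells a cell's gland or mouse. Every barcode of the matrix carries the same suffix, so the matrix counts as 1 sample and there is no spread between animals. Intervals are exact 95% intervals that cover counting error only.

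Esp genes encode exocrine gland-secreted peptides, small secreted proteins made in the lacrimal, Harderian and submandibular glands of rodents. The best known member, ESP1, is released into the tears of male mice and is sensed by receptor neurons of the vomeronasal organ, where it acts as a pheromone. For most other members, Esp4 included, much less is known of what the peptide does. In the salivary glands, acinar cells make the primary fluid and most of the protein of saliva. Ducts carry the saliva to the mouth, change its salt content and, in the mouse SMG, add kallikreins and growth factors from granular cells.

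The matrix holds 15707 barcodes, each taken as a cell, with a median of 2608 UMIs and 689 genes. A UMI (unique molecular identifier) is a tag that marks 1 captured RNA molecule, so a UMI count is a number of molecules. Each molecule is counted once at its 3' end, so levels, given as UMIs per 10000 UMIs summed over a group of cells, were not scaled by transcript length.

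Esp4 had 2808 UMIs in all, which ranked it 1396 among all genes, and at least 1 UMI in 1097 barcodes, or 6.98% (6.59% to 7.39%). Most of these barcodes held little of it. Of them, 609 had exactly 1 Esp4 UMI and 166 had exactly 2. The 322 barcodes with at least 3 UMIs held 66.5% of all Esp4 UMIs, the 72 with at least 8 held 27.6%, and the highest barcode had 21. Barcodes with an Esp4 UMI had a median of 4181 UMIs and those without had 2553, and deeper barcodes are more likely to hold a UMI of any gene. With every cell thinned to 1000 UMIs, 436 barcodes or 2.78% (2.52% to 3.04%) had an Esp4 UMI.

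Esp4 was the most counted gene of its family here. Esp18 followed with 2086 UMIs in 663 barcodes, and Esp8 with 1431 UMIs in 954 barcodes. Esp31 had 30 UMIs and Esp6 had 10. Esp34 had 3 UMIs, Esp15, Esp23 and Esp24 had 2 each, and Esp1, Esp3, Esp16, Esp22, Esp36 and Esp38 had 0. The family thus came down to 3 genes that could be followed across cells. A single barcode held up to 30 UMIs of Esp18 but at most 7 of Esp8.

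In GENCODE M21, on build GRCm38, Esp4 (ENSMUSG00000095540) lies on the plus strand at chr17:40598594-40602618 as a protein-coding gene with 1 transcript of 3 exons. Exon 1 has no coding bases. Exon 2 holds 51 coding bases, and exon 3 holds the remaining 303 of the 354. The 15 Esp genes were all found in this annotation, within 2.32 megabases of the chromosome. The nearest to Esp4 are Esp3, 29456 bases away, and Esp6, 32966 bases away. Esp8 lies 68172 bases away and Esp18 lies 1187601 bases away. The 2 nearest genes were thus at 0 and 10 UMIs, while Esp8 and the more distant Esp18 were among the counted genes.

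The annotated Esp4 transcript ends 21 bases after the stop codon, that of Esp8 122 bases and that of Esp18 851 bases. Reads that fall beyond an annotated end are not counted for the gene, and the annotation used for the matrix is not given in the sources used here. How far this set the levels of one Esp gene against another was not tested. Comparisons of 1 gene between clusters do not depend on it where the clusters use the same transcript end, which was not tested.

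Since members of a gene family can share reads, the sequences of the 3 counted genes were compared. The coding sequences of Esp4 and Esp8 were identical at 73.5% of 336 aligned positions, and those of Esp4 and Esp18 at 63.0% of 257. Over the last 300 bases of each transcript, where 3' reads mostly fall, 0 of 211 windows of 90 bases in Esp4 occurred in a transcript of another gene. The same count was 0 of 211 for Esp18 and for Esp8. The first 150 coding bases of each gene are shown to let their likeness be seen, with capitals in Esp18 and Esp8 at bases aligned to the same base in Esp4.
Esp4: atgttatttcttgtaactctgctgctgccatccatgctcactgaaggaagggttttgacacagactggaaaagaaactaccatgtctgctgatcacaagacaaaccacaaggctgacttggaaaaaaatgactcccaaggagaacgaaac
Esp18: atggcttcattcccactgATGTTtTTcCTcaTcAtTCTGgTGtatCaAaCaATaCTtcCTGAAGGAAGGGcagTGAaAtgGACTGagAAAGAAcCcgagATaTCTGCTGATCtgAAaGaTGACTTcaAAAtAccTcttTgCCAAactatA
Esp8: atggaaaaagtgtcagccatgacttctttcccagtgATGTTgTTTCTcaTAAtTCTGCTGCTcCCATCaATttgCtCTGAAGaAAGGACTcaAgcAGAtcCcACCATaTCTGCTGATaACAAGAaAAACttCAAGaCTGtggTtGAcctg
Capitals mark 84 of the bases shown for Esp18 and 82 of those shown for Esp8. They come in short blocks broken by differences, and the longest stretch of shared bases in Esp18 stands at its CTGAAGGAAGGG.

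Cells were grouped into 24 clusters without use of the Esp genes. Clusters were given a cell class from marker genes where these allowed it, which named 8803 cells. Esp4 was highest in cluster 9, a duct-like cluster of 499 cells, at 7.15 UMIs per 10000 (6.77 to 7.55). Besides 9 of 12 duct markers, cluster 9 had 3 of 5 intercalated duct markers, Kit, Smgc and Elf5. The 5 had a summed level of 42.3, of which Smgc alone made 38.5, and a single cell held 1369 of its 7063 UMIs there. Smgc was at 34.8 in cluster 16 and at 1517 in cluster 15. The other duct-like clusters, 3, 7 and 10, had 1, 0 and 1 of the 5 intercalated duct markers. Esp4 was next highest in cluster 23, a cluster of 59 cells named myoepithelial-like, at 3.05 (2.51 to 3.68). Then came cluster 16, a basal duct-like cluster of 177 cells, at 2.53 (2.23 to 2.84). In the other clusterings tried the second cluster had 170 to 238 cells. The second place of a cluster as small as cluster 23 was thus seen in the main clustering alone. Clusters of under 50 cells were not taken as the second, so these sizes do not show whether a smaller cluster stood higher. Cluster 15, an unnamed cluster of 232 cells led by Smgc, a gene for a secreted submandibular protein, stood at 2.29 (2.00 to 2.62). Cluster 23 had mixed markers, with 7 of 8 myoepithelial markers at a summed level of 66.2, 10 of 12 duct markers at 69.9 and 4 of 5 intercalated duct markers, among them Smgc at 263. The interval of cluster 9 lay above the 3 others. Neither cluster 23 and cluster 16 nor cluster 16 and cluster 15 were told apart, with log2 ratios of 0.27 (-0.06 to 0.60) and 0.14 (-0.12 to 0.40). That of cluster 23 to cluster 15 was 0.41 (0.07 to 0.75).

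Below these 4 clusters the level dropped. Cluster 22, an unnamed cluster of 61 cells with duct, ionocyte and lymphoid markers, had 0.765 (0.485 to 1.15). Its 23 Esp4 UMIs lay in 8 cells, with 7 UMIs in a single cell. Thinned to 1000 UMIs, 1.64% (0.0415% to 8.80%) of its cells had an Esp4 UMI. The 19 remaining clusters lay at or below 0.229. Among them the other duct-like clusters stood at 0.132 (0.0877 to 0.191) in cluster 7, 0.118 (0.0789 to 0.169) in cluster 10 and 0.0896 (0.0585 to 0.131) in cluster 3. The mucous acinar-like cluster had 0.15 (0.116 to 0.191), the vascular-like cluster 0.122 (0.0833 to 0.172) and the serous acinar-like cluster 0.0328 (0.0285 to 0.0376). Lymphoid-like clusters ranged from no UMI in cluster 19 to 0.229 (0.0742 to 0.533) in cluster 18. From cluster 22 down to cluster 3 each interval overlapped the next, while some clusters further apart did not overlap, such as cluster 22 and cluster 1 at 0.198 (0.175 to 0.224), or cluster 1 and cluster 3. Clusters 14, 19 and 20 had no Esp4 UMI, where 3 UMIs would give 0.0458, 0.0927 and 0.0593.

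**Figure D1:**
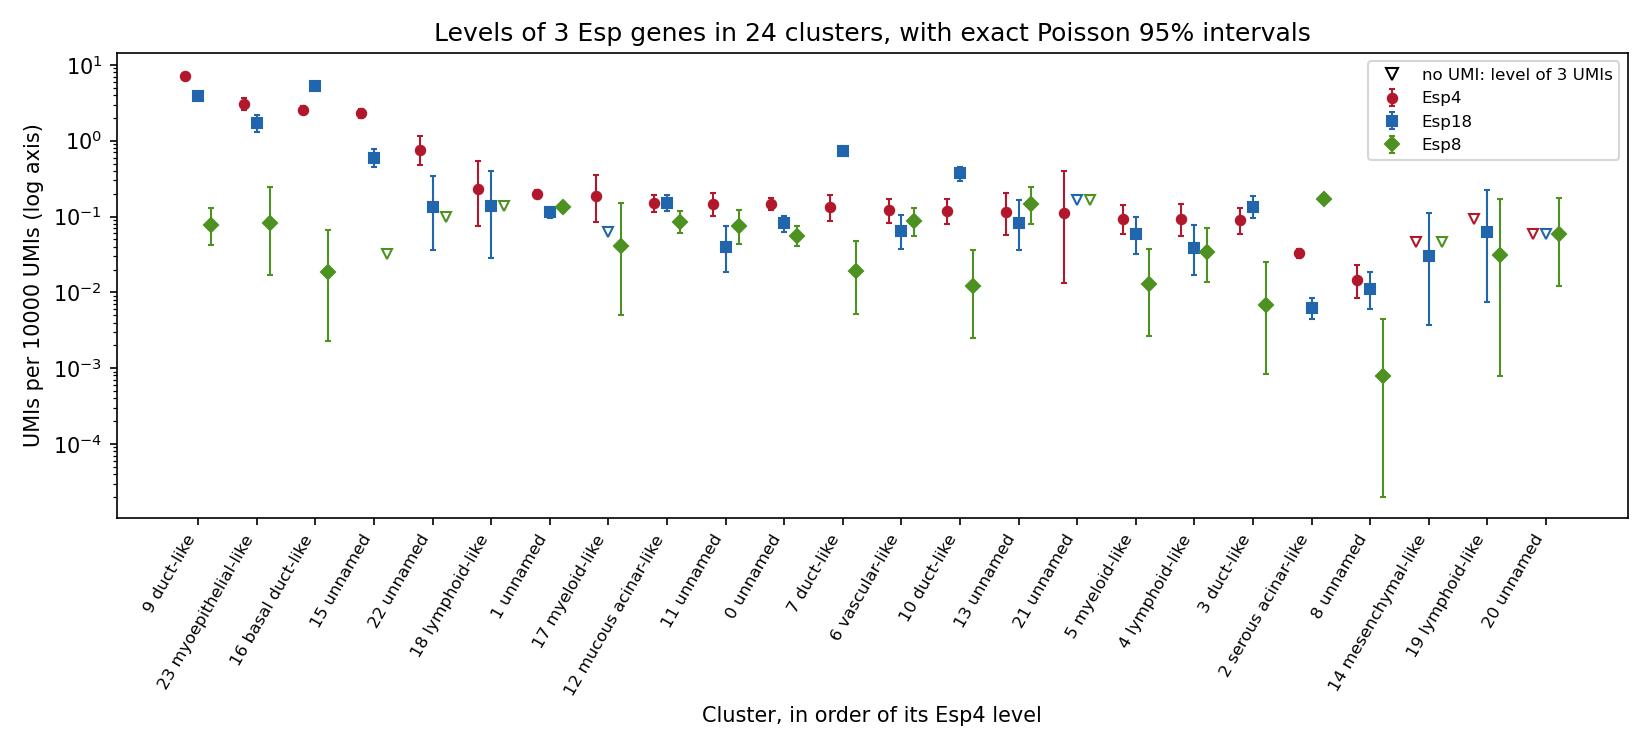
Level of Esp4, Esp18 and Esp8 in each of 24 clusters, in UMIs per 10000 UMIs on a log axis, with exact Poisson 95% intervals. Clusters are ordered by Esp4, and open triangles stand at the level of 3 UMIs where a gene had none. Esp4 falls from 7.15 in cluster 9 to 2.29 in cluster 15, then to 0.765 and below, while Esp8 is highest in the serous acinar-like cluster.

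Cluster 9 made up 3.18% of cells and 1.47% of UMIs, and held 46.7% (44.9% to 48.6%) of all Esp4 UMIs. Together with clusters 15, 16 and 23 it held 67.9% (66.2% to 69.6%) of them in 6.16% of cells. The rest were spread thinly over 14740 cells at 0.0745 UMIs per 10000. The log2 ratio of cluster 9 to cluster 23 was 1.23 (0.95 to 1.52), and that to cluster 16 was 1.5 (1.31 to 1.70). At resolutions 0.3 and 0.8 the log2 ratio of the highest to the second cluster was 1.91 and 1.96, and with 30 principal components 1.91. The second cluster there had 177, 177 and 170 cells. With 10 principal components the highest cluster grew to 932 cells, 52.1% of them from cluster 9, at a level of 4.37. The log2 ratio to the second cluster was then 2.31 (1.95 to 2.70). Against cluster 7 the log2 ratio was 5.76 (5.22 to 6.36), though a single cell held 11 of the 28 Esp4 UMIs of cluster 7. The other duct-like clusters thus lay further below cluster 9 than clusters 23, 16 and 15 did. In cluster 23, 7 cells had an Esp4 UMI at 1000 UMIs a cell. Of these, 1 had Krt14, 4 had Acta2 and 4 had Smgc, against 34, 44 and 9 of the 52 other cells. The values of so few cells do not settle which of the mixed cells hold its Esp4.

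Free RNA in the droplets gives some UMIs of a gene to cells that do not make it, so shares of cells were set beside those of blood-derived cells. At the deposited depth, 66.7% (62.4% to 70.9%) of cells in cluster 9 had an Esp4 UMI, at a median of 2246 UMIs. In lymphoid-like cells the share was 0.894% (0.447% to 1.59%), at a median of 1866.5 UMIs. With cells thinned to 1000 UMIs the shares were 44.1% (39.7% to 48.6%) and 0.488% (0.179% to 1.06%). Thinned shares in the next clusters were 13.6% (8.88% to 19.5%) in cluster 16, 11.9% (4.91% to 22.9%) in cluster 23 and 11.6% (7.81% to 16.5%) in cluster 15. All of these lay far above the lymphoid-like share.

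Serous acinar-like cells show how depth bears on such shares. At the deposited depth 8.26% (7.14% to 9.49%) of them had an Esp4 UMI, but their median was 25663 UMIs. They had 0.0936 (0.0812 to 0.107) Esp4 UMIs a cell, against 0.0195 (0.0125 to 0.0290) in lymphoid-like cells. Thinned to 1000 UMIs, the share was 0.365% (0.158% to 0.718%), no higher than in lymphoid-like cells. Mucl2 took 5965 of every 10000 UMIs in serous acinar-like cells, so thinning leaves few UMIs of other genes. The thinned share therefore does not settle the source of their Esp4. Thinned shares in the other duct-like clusters were 0.858% (0.393% to 1.62%) in cluster 3, 0.882% (0.324% to 1.91%) in cluster 7 and 0.830% (0.227% to 2.11%) in cluster 10. These overlapped the lymphoid-like interval as well. The unnamed clusters 0 and 1, whose medians of 325 and 428 genes are low, had 1.73% (1.29% to 2.28%) and 1.83% (1.32% to 2.47%). These lay somewhat above the lymphoid-like share.

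A second measure of free RNA sets Esp4 against Mucl2, an abundant product of serous acinar cells. Lymphoid-like cells had 0.0882 (0.0565 to 0.131) Esp4 UMIs for every 1000 Mucl2 UMIs, myeloid-like cells had 0.140 (0.0955 to 0.199), and vascular-like cells had 0.0420 (0.0287 to 0.0593). Cluster 9 had 3.64 (3.45 to 3.84), cluster 15 had 3.15 (2.74 to 3.61), cluster 16 had 4.08 (3.61 to 4.59) and cluster 23 had 4.38 (3.60 to 5.28). These 4 ratios lay above those of the blood-derived and vascular-like cells. The latter rest on few cells, with the 24 UMIs of lymphoid-like cells in 11 cells and up to 9 UMIs in a single vascular-like cell. Clusters 0 and 1 had 0.0636 (0.0528 to 0.0759) and 0.0379 (0.0334 to 0.0429). By this measure, unlike by thinned share, they did not lie above the lymphoid-like cells. However, they held 666 and 2900 Mucl2 UMIs a cell, against 221 in lymphoid-like cells. A larger denominator lowers the ratio, so it cannot place the Esp4 of clusters 0 and 1. Esp4 itself stood at 0.0423 and 0.110 UMIs a cell there, against 0.0195 in lymphoid-like cells.

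**Figure D2:**
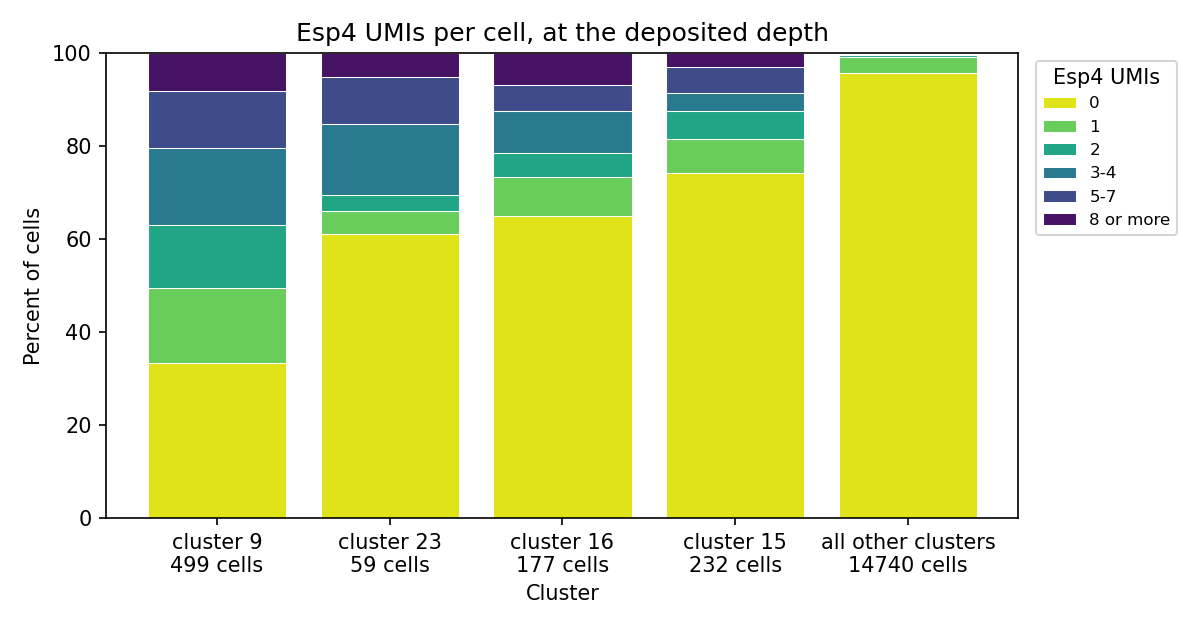
Percent of cells with 0, 1, 2, 3 to 4, 5 to 7 and 8 or more Esp4 UMIs at the deposited depth, in the 4 clusters with the highest levels and in the other 14740 cells. In cluster 9, 66.7% of cells have a UMI, against 39.0% in cluster 23, 35.0% in cluster 16 and 25.9% in cluster 15.

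Within cluster 9 the cells differed widely. The median cell had 2 Esp4 UMIs, the quartiles were 0 and 4, and 166 of the 499 had none. The 102 cells with at least 5 UMIs held 61.8% of the cluster's Esp4. With equal depth of 1000 UMIs a cell, the mean was 0.842 and the variance 1.86, a ratio of variance to mean of 2.21, where counting alone would give a ratio of 1. Cells without a thinned UMI were 55.9%, and a Poisson count with the same mean would leave 43.1% without one.

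Part of this spread followed a division of the cluster. A finer clustering at resolution 0.8 placed 358 of the 499 cells in a part with an Esp4 level of 9.80 (9.25 to 10.4), which held 92.6% of the cluster's Esp4. Another 77 cells, at 1.02 (0.713 to 1.42), carried contractile genes of myoepithelial cells, led by Acta2 at 4.59 UMIs per 10000 against 0.0968 in the larger part. Of 8 myoepithelial markers, 7 had a UMI in both parts and Oxtr was at 0 in both. Their summed level was 11.7 in the 77 cells and 0.379 in the larger part. A further 63 cells, at 2.29 (1.73 to 2.97), had a median of 558 genes and a summed level of serous acinar markers of 280, led by Prol1, against 223 in the 77 cells and 96.4 in the larger part. The duct markers went the other way, from 103 in the larger part to 57.7 in the 77 cells and 31.5 in the 63. In what way these admixed markers set the level of the whole cluster was not tested beyond this division.

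Cells can also be taken by genes alone. Slc13a2 and Slc9a3 belong to the pattern from which Esp4 was chosen, so the values repeat that choice and are no separate support. In the 105 cells with a UMI of both Slc13a2, a sodium-coupled citrate transporter, and Slc9a3, a sodium-proton exchanger, 93.3% (86.7% to 97.3%) had an Esp4 UMI, at a level of 5.06 (4.65 to 5.50). In the 365 cells with 1 of the pair, the share was 64.4% (59.2% to 69.3%) and the level 3.04 (2.85 to 3.24). In the 15237 cells with neither, the share was 5.01% (4.67% to 5.37%) and the level 0.107 (0.101 to 0.113). These groups differ in depth, with medians of 6172, 3474 and 2584 UMIs. Esp4 levels, which are per UMI, followed the same order as the shares. The cells with both were not all in cluster 9, since 61 lay there and 31 in clusters 15, 16 and 23.

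The transporters were also set against Esp4 by cluster. For each Esp4 UMI there were 0.165 (0.142 to 0.190) of Slc9a3 in cluster 9, 0.164 (0.111 to 0.236) in cluster 15, 0.180 (0.130 to 0.245) in cluster 16 and 0.364 (0.247 to 0.527) in cluster 23. The figures for Slc13a2 were 0.154 (0.132 to 0.179), 0.164 (0.111 to 0.236), 0.110 (0.0730 to 0.161) and 0.236 (0.148 to 0.365). The ratios of clusters 15 and 16 overlapped those of cluster 9 for both genes, and cluster 23 overlapped it for Slc13a2 alone. The other duct-like clusters overlapped it as well on few UMIs, with Slc9a3 at 0.214 (0.0725 to 0.527) in cluster 7, so the ratio does not mark out clusters 15, 16 and 23. By cell, at 1000 UMIs, Slc9a3 was in 16.4% (11.7% to 21.9%) of cells with Esp4 in cluster 9 and 6.09% (3.59% to 9.58%) of those without, and Slc13a2 in 15.9% (11.3% to 21.4%) and 9.32% (6.18% to 13.4%). In the 358 cells of the larger part, Slc9a3 was in 17.3% (12.4% to 23.3%) and 8.97% (4.99% to 14.6%). Slc13a2 was there in 17.3% (12.4% to 23.3%) and 14.1% (9.05% to 20.6%), and the intervals of both genes overlapped. In clusters 15, 16 and 23 each gene was in at most 1 cell with Esp4, too few to compare. Slc9a3 was in 1 of 24 such cells in cluster 16, 0 of 27 in cluster 15 and 1 of 7 in cluster 23, and Slc13a2 in 1, 1 and 0.

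In those clusters much of the Esp4 lay in few cells. Taking cells by at least 5 Esp4 UMIs favours deep cells, so their depths are given without a reading. In cluster 16, 22 of 177 cells had at least 5 Esp4 UMIs and held 68.4% of the cluster's Esp4, at a median of 10022.5 UMIs against 4354 for the cluster. In cluster 15 the 20 such cells held 64.8%, with medians of 8233.5 and 3307 UMIs, and in cluster 23 the 9 such cells held 65.5%, with medians of 11091 and 5072. In cluster 9 itself the medians were 3510 and 2246. Cells with neither Slc13a2 nor Slc9a3 kept 1.33 (1.07 to 1.64) in cluster 16, 1.25 (1.00 to 1.54) in cluster 15 and 0.670 (0.307 to 1.27) in cluster 23, and 5.33 (4.81 to 5.88) in cluster 9. These values were lower than those of the whole clusters, and all lay above the level of the other duct-like clusters. The doublet caller gave no usable calls here, and the part of droplets with more than 1 cell in the Esp4 of clusters 15, 16 and 23 was not tested.

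Esp18 had another order over the same clusters. It was highest in the basal duct-like cluster 16, at 5.30 (4.87 to 5.75), where 39.0% (31.8% to 46.6%) of cells thinned to 1000 UMIs had a UMI. Cluster 9 followed at 3.88 (3.60 to 4.18) and cluster 23 at 1.72 (1.32 to 2.20). Cluster 7, at 0.735 (0.624 to 0.860), and cluster 15, at 0.592 (0.446 to 0.771), came after them. Between clusters 16 and 9 the log2 ratio was 0.45 (0.29 to 0.61) for Esp18 and -1.5 (-1.70 to -1.31) for Esp4, so the genes stood in opposite order there. For each Esp4 UMI there were 2.10 (1.81 to 2.43) of Esp18 in cluster 16 and 0.543 (0.495 to 0.595) in cluster 9. In clusters 7 and 10, which are led by kallikrein genes and where thinned Esp4 shares overlapped those of lymphoid-like cells, Esp18 stood above Esp4, with 156 UMIs against 28 and 91 against 29.

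Some single cells held both genes. At 1000 UMIs a cell, 28.6% (22.8% to 35.1%) of the 220 cells of cluster 9 with Esp4 had an Esp18 UMI, against 10.8% (7.37% to 15%) of the 279 without. Within the 358 cells of the larger part the shares were 29.7% (23.5% to 36.5%) and 15.4% (10.1% to 22%), with intervals that did not overlap. In cluster 16 they were 58.3% (36.6% to 77.9%) of 24 cells and 35.9% (28.4% to 44.1%) of 153, where the intervals overlapped. In clusters 15 and 23, 3 of 27 and 1 of 7 cells with Esp4 had an Esp18 UMI, too few to compare.

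Esp8, nearer to Esp4 on the chromosome than Esp18 and more alike in coding sequence, had 14 UMIs in cluster 9, at 0.0763 (0.0417 to 0.128). The serous acinar-like cluster, with 49.96% of all UMIs, held 1079 of its UMIs, or 75.4%, at 0.173 (0.162 to 0.183) UMIs per 10000. Clusters 13, at 0.145 (0.0791 to 0.243), and 1, at 0.133 (0.114 to 0.155), lay close to it. There were 5.26 (4.53 to 6.14) Esp8 UMIs for each Esp4 UMI in that cluster, and 0.0107 (0.00582 to 0.0180) in cluster 9. At the deposited depth serous acinar-like cells had 0.492 (0.464 to 0.523) Esp8 UMIs a cell, and lymphoid-like cells 0.00650 (0.00281 to 0.0128). An Esp8 UMI was in 29.7% (27.8% to 31.6%) and 0.569% (0.229% to 1.17%) of them, at medians of 25663 and 1866.5 UMIs. Thinned to 1000 UMIs, 1.37% (0.926% to 1.95%) of serous acinar-like cells had an Esp8 UMI, which overlapped the lymphoid-like share of 0.488% (0.179% to 1.06%). In cluster 9 the share was 0.802% (0.219% to 2.04%), which overlapped both. The log2 ratio of Esp8 in the serous acinar-like cluster to cluster 9 was 1.18 (0.42 to 2.05). Those of cluster 9 to clusters 7, 10 and 3 were 2.02 (0.35 to 4.08), 2.65 (0.81 to 5.09) and 3.47 (1.35 to 6.65), on few UMIs.

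The genes whose level moved most like Esp4 over the 24 clusters were for the most part highest in cluster 9. Likeness was Pearson's r of log2(UMIs per 10000 + 0.1) over 9590 genes with at least 200 UMIs, and the clusters share 1 library and are not independent samples. The first 2 were Slc9a3 at r = 0.97 and Slc13a2 at 0.95, the pair that was part of the choice of Esp4. Rhov and Gjb2, a gap junction connexin, both had 0.95, and Hp, which encodes haptoglobin, had 0.94. BC006965 had 0.92, Pir 0.91, the organic anion transporter Slco1a5 and the ectoenzyme Enpp3 0.90 each, and Pdzk1ip1 0.89. Of these 10, 8 were highest in cluster 9. By Spearman's rho Slc9a3, Rhov, Gjb2 and Hp were again among the first 10, while Slc13a2 was not. Esp18 ranked 20 with r = 0.86, and Esp8 ranked 8590 with r = 0.01. The median gene had r = 0.35.

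Over the 2710 cells of the 4 duct-like clusters, thinned to 1000 UMIs, the order was led by abundant genes. Wfdc18, a small secreted protein of the whey acidic protein family, had r = 0.52 over 1516 genes. Its level was 247 UMIs per 10000 in cluster 9 and 7.60 in the other duct-like clusters. Hp had 0.39, the cyclin Ccnd1 0.37, Tmem176a, Cyp2f2, Esp18 and Gjb2 0.35 each, the carbonic anhydrase Car2 0.33, Tmem176b 0.32 and Taldo1 0.28. All cells had equal depth, and they share 1 library. These values mostly set cluster 9 against the other 3 clusters. Within cluster 9 the first was Cyp2f2 at 0.33, then Esp18 at 0.26 over 494 genes, Hp was among the first 10, and the other 7 genes of this list were not. Hp and Gjb2 were in both lists of 10.

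Inside cluster 9, cells with a thinned Esp4 UMI were set against those without. The planned split by Esp4 rank met many ties at 0, so the groups became 220 cells with at least 1 and 279 cells with 0. The 10 genes highest with Esp4 were Car8, Chp1, Sh3bgrl, Cxcl1, Gm16136, H2afv, Sat1, Esp18, Aox3 and Fam13a, with log2 ratios from 1.96 to 1.35. The median over 1035 genes was 0.34. Car8, a carbonic anhydrase-related protein, stood at 2.09 against 0.538 UMIs per 10000, a log2 ratio of 1.96 (1.10 to 2.91). Esp18 stood at 7.74 against 2.83, a log2 ratio of 1.45 (1.06 to 1.85).

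Genes lowest with Esp4 included products of acinar and granular cells. The kallikreins Klk1b26 and Klk1, the demilune cell proteins Dcpp1, Dcpp2 and Dcpp3, the secreted carbonic anhydrase Car6 and Crisp3 were among the 10, with S100a6, Timp3 and Apoe. Klk1b26 had a log2 ratio of -1.86 (-2.63 to -1.15) and Dcpp1 one of -1.66 (-1.80 to -1.53). Acta2 was seen in 1.82% (0.498% to 4.59%) of cells with Esp4 and 10.4% (7.07% to 14.6%) of those without, so the contractile part moved with this comparison. In the 358 cells of the larger part, a choice made after seeing the data, 15 of the 20 genes had enough UMIs and all 15 kept their sign. There the log2 ratio was 0.79 (0.38 to 1.21) for Esp18 and -1.85 (-2.05 to -1.66) for Dcpp1. Others shrank, with Car6 at -0.28 (-0.49 to -0.07) instead of -1.31, and Aox3 at 0.75 (-0.11 to 1.67) instead of 1.39. S100a6 and Apoe, below the minimum there, leaned the other way on few UMIs, with 10 against 4 and 17 against 7. The highest ratio in that part was that of Smgc, at 24.7 against 3.33 UMIs per 10000, a log2 ratio of 2.89 (2.47 to 3.33). Few cells carried it, since 19.8% (14.5% to 26.0%) of cells with Esp4 and 12.8% (8.01% to 19.1%) of those without had a Smgc UMI, and these intervals overlap. In the whole cluster the shares ran the other way, at 21.4% (16.1% to 27.4%) and 30.1% (24.8% to 35.9%). Whether free RNA of acinar products differed between these cells was not tested.

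Lists of genes were then compared between cluster 9 and the other duct-like clusters, 3, 7 and 10, which together had 2211 cells. Of 9125 genes with at least 50 UMIs in both together, 4.58% were at least 2-fold higher in cluster 9 and 15.5% at least 2-fold lower, and the median log2 ratio was -0.27. Kallikreins took 10.0% of UMIs in the other clusters and 0.241% in cluster 9, and mitochondrial transcripts 13.1% and 4.66%. The other way, Mucl2 stood at 1964 UMIs per 10000 in cluster 9 and at 658, 703 and 408 in clusters 3, 7 and 10. Such abundant genes shift the ratios of all others in both directions. Esp4, at 7.15 against 0.111, ranked 5 by ratio. The serous acinar markers summed to 145 in cluster 9 and to 39.1, 41.6 and 27.7 in clusters 3, 7 and 10. Clusters 3 and 10 each had 7 of 8 ionocyte markers, at summed levels of 24.3 and 15.2, against 3.66 in cluster 7 and 1.19 in cluster 9, so the pool of other duct-like cells is rich in ionocyte transcripts. Cluster 9 was found by clustering these genes, so the values are a description of the cells that hold most Esp4.

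Of 24 genes of duct ion transport 22 had enough UMIs, with 6 at least 2-fold higher, 11 at least 2-fold lower and a median of -1.29. The higher ones were Slc13a2, Slc9a3, Car2, Car12, the monocarboxylate transporter Slc5a8 and the water channel Aqp5. Aqp5, at 0.938 in cluster 9, was higher in the serous acinar-like cluster, at 2.04, and in cluster 15, at 4.65, and the part of acinar transcripts in its ratio was not tested. Slc13a2 stood at 1.10 against 0.00935 UMIs per 10000, a log2 ratio of 6.88 (5.81 to 8.21). Car2 stood at 4.22 against 0.281, a ratio of 3.91 (3.69 to 4.14). Cluster 23 held these genes as well, with Slc13a2 at 0.721, Slc9a3 at 1.11 and Car2 at 2.75. Car12 was there at 1.66, Slc5a8 at 0.971 and Aqp5 at 0.694. In cluster 9 Slc9a3 was at 1.18, Car12 at 1.84 and Slc5a8 at 1.06. Among the lower ones were all 3 subunits of the epithelial sodium channel, with Scnn1b at 0.125 against 2.59, a ratio of -4.37 (-5.03 to -3.78). The ionocyte genes Bsnd, Cftr and Atp6v0d2 were lower too, as was the sodium pump modulator Fxyd2, at 4.8 against 97.2.

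All 16 of the 18 granular duct products that had enough UMIs were at least 2-fold lower in cluster 9, with a median of -5.81. Klk1 stood at 21.4 against 841 UMIs per 10000. Egf, at 0.136 against 3.60, behaved alike. The duct-like cluster with most Esp4 thus had far less of these granular products than the other duct-like clusters as 1 pool. Within the pool Klk1 stood at 1633 in cluster 7 and 1025 in cluster 10, but at 107 in cluster 3. Of 6 granular duct markers, clusters 7 and 10 had 5 each, cluster 3 had 1 and cluster 9 had 0. The difference from cluster 3 was therefore much smaller.

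Of 20 transcription factors of ducts and secretory cells 18 had enough UMIs, with 5 higher, 7 lower and a median of 0.21. Sox10, at 0.294 against 0.0107, had the highest log2 ratio, 4.78 (3.70 to 6.07), followed by Bhlha15, Elf5, Barx2 and Creb3l1. These were not all particular to cluster 9. In cluster 23, Sox10 was higher, at 0.555, and Barx2 was at 1.53 against 2.00 in cluster 9. Elf5 was there at 0.915 against 1.73, Bhlha15 at 0.139 and Creb3l1 at 0.111. Bhlha15, at 0.174, and Creb3l1, at 0.245, were higher in the serous acinar-like cluster, at 0.317 and 0.388. The ionocyte factors Ascl3, Foxi1 and Foxi2 were all lower, with Foxi1 at 0.136 against 3.05. Sox9 was at 6.36 against 3.54 and Ehf at 5.24 against 3.07, short of 2-fold.

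Of 10 hormone receptors 8 had enough UMIs, none was 2-fold higher and Pgr and Ghr were lower. In the larger part of cluster 9, 1 receptor was at least 2-fold higher. All mice were female, so Esp4 could not be compared between sexes.

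The 16 genes of ER and secretion changed little, with a median of 0.13. Only Rab3d, a small GTPase of secretory granules, was 2-fold higher, at 0.360 against 0.140, and only Creb3l2 was 2-fold lower. Of 83 genes for secreted carriers and other chemosignals just 8 had enough UMIs, with 7 higher and Scgb1c1 lower. Mup5, a major urinary protein gene, stood at 1.98 against 0.208, a log2 ratio of 3.25 (2.97 to 3.53), and Scgb1b27 at 496 against 117. Both had higher levels still in the serous acinar-like cluster, with Mup5 at 2.66 and Scgb1b27 at 1502. The part of free RNA in their ratios was not tested.

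**Figure D3:**
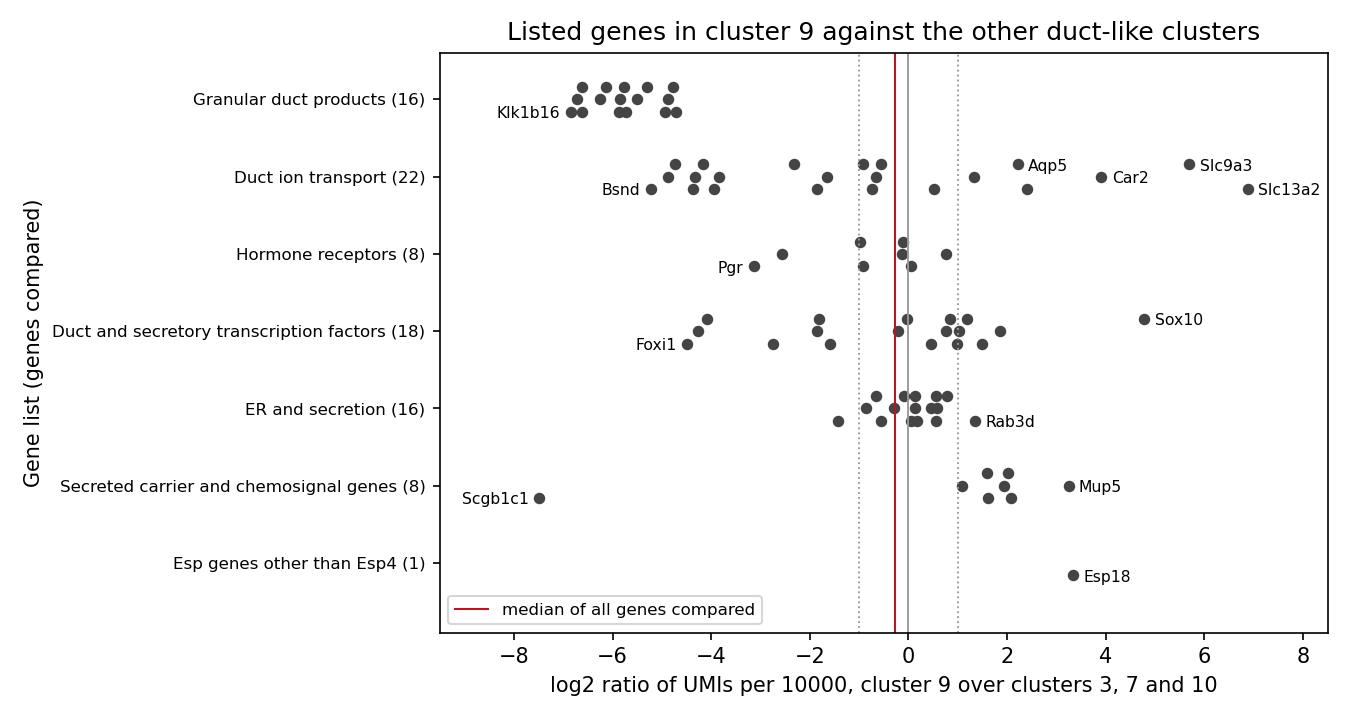
Log2 ratio of UMIs per 10000 in cluster 9 over clusters 3, 7 and 10 for each listed gene with at least 50 UMIs, 1 point a gene, spread vertically for sight only. Dotted lines mark 2-fold, the grey line no difference and the red line the median of all genes at -0.27. Granular duct products all lie to the left, while ion transport genes lie on both sides.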

How the data were processed

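The authors deposited 1 matrix of raw UMI counts made with Cell Ranger 6.0.1 from 10x Genomics 3' libraries, on build mm10 in the submitters' processing notes. Their filter on cells is not given in the sources used here, so all 15707 barcodes were kept, the lowest with 1374 UMIs. The 4 samples form 1 group and were not told apart in the matrix, so no test was run.

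Seurat 5.3.0, run in R 4.3.3, took each cell's counts to logs after scaling them to 10000. Of 2000 variable genes, 4 Esp genes were removed, leaving 1996. Louvain clustering used 20 principal components and resolution 0.5. A class needed 3 markers, each with a UMI in at least 25% of cells and a level above that of the other cells, and a median of at least 500 genes. Clusters with markers of several classes were named by judgement, after Esp4 levels had been seen, or left unnamed. Scrublet, in scanpy 1.11.5, marked under 0.5% of cells as doublets, which counts as not having worked.

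Levels are UMIs per 10000 with exact Poisson intervals, log2 ratios have exact conditional binomial intervals, and shares have exact binomial intervals. In log2 ratios of the lists and of cells with and without Esp4, a count of 0 was set to 3. Cells were thinned to 1000 or 500 UMIs by drawing without replacement, and none was shallower. Genes named are the Esp genes, the 10 most like Esp4 by each measure, the 10 highest and 10 lowest in the comparison inside its highest cluster, and members of the lists. Members and lists were chosen with earlier results of these data known. Alternatives were other resolutions, numbers of principal components, depths, cell filters, denominators, pseudocounts, minimum counts, Spearman's rho, Esp genes kept, high Scrublet scores left out and free RNA taken away. The log2 ratios, the Poisson intervals and the ranking by likeness across clusters were tested on simulated data. Positions and transcripts are from GENCODE M21. Python 3.11.15 was used with numpy 2.4.6, scipy 1.17.1, pandas 2.3.3, matplotlib 3.10.9 and Biopython 1.88.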

Additional observations from a re-analysis of the deposited data

How the results depend on the processing

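In each clustering tried, Esp4 was highest in a cluster that took at least 52.1% of its cells from cluster 9. That cluster stands above the second by definition, and the second cluster differed in size between clusterings, so the ratios do not compare like pairs. The level in that cluster was 9.47 at resolution 0.3, 9.80 at resolution 0.8, 9.88 with 30 principal components, 6.34 with Esp genes kept and 4.37 with 10 principal components, where it had 932 cells. It was 10.1 with Mucl2, Pip and the Scgb genes taken out of the total and 8.29 with free RNA taken away. The share of all Esp4 UMIs became 44.0%, 43.3%, 43.3%, 51.6% and 69.6% under the same 5 clusterings. The log2 ratio to the second cluster became 1.91, 1.96 and 1.91 at resolutions 0.3 and 0.8 and with 30 principal components, 2.31 with 10 and 1.56 with the smaller total. The second cluster had 177 cells at both other resolutions. The cell filter and the Scrublet scores left level, share and ratio within their intervals.

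Barcodes with an Esp4 UMI numbered 266 at 500 UMIs and 436 at 1000, by construction fewer. Of the 10 genes most like Esp4 across clusters, 4 were among the first 10 by Spearman's rho and 6 with a pseudocount of 0.01, and the cause was not tested. With at least 1000 UMIs it was 3, the number that had so many. Across duct-like cells 5 of 10 were among the first at 500 UMIs, the number that then passed the minimum. Of the 20 genes of the comparison inside cluster 9, 11 were named again in its larger part, an alternative added after seeing the data. Leaving out a sample was not possible, since cells were not assigned to samples. No paired analysis was possible because the matrix does not tell the samples apart. Cluster 23 has 59 cells and 110 Esp4 UMIs, and 1 pooled library gives no spread between animals.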
